A study of Mus musculus with 12 samples.

Results

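Purinergic signalling genes were followed in mouse bone marrow-derived macrophages: 10 genes for ectonucleotidases (Enpp1, Enpp4, Entpd1 and Nt5e), adenosine receptors (Adora2a, Adora2b and Adora3) and nucleotide receptors (P2rx4, P2rx7 and P2ry6). Members were the rows of the value table whose platform symbol was exactly 1 of these names. Of the 10 genes, 7 had such a row, and each had 1 row. These 7 are among 22180 genes with a row of 1 symbol. Enpp1, Adora2a and Adora2b were not analysed here, because no row carried their symbol alone. The list was drawn up with results of these arrays known, and Enpp4 was chosen by the measured difference between its R848 responses in the genotypes. Where a symbol has several rows, the row is selected on its mean over all 12 arrays. Its values in that comparison are therefore a description, with no test.

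Macrophages were grown from marrow in medium conditioned by L929 cells. They came from wild-type mice, or from Rasgef1b knockout mice, in which floxed Rasgef1b is cut by an iCre recombinase under the Vav promoter, active in blood-forming cells. Each genotype received saline, or R848, a synthetic agonist of TLR7 and TLR8, for 4 h, with 3 arrays in each of the 4 groups. No time is given for saline, no strain or age is given for the mice, and no group carried the recombinase alone. An effect of the recombinase and of the lost gene therefore cannot be told apart. Whether the 3 replicates of a group were separate animals or cultures is not given, and p-values then reflect only the spread of these samples, which may be technical.

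Cells release ATP and other nucleotides when stressed or activated, and macrophages read them through P2X channels and P2Y receptors on their surface. Ectonucleotidases cut ATP down to AMP and then to adenosine, which acts on a separate family of receptors that mostly restrain inflammation. In macrophages, ATP acting on P2X7 is best known as the second signal for release of interleukin 1 beta, after a first signal through a Toll-like receptor.

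Values were log2 intensities from RMA, on which a difference of 1 means a doubling. Each row has its own probes, so levels were compared between groups for 1 gene and never between genes. Over 14079 tested genes, arrays of a group correlated at 0.9909 to 0.9964. Arrays of different groups correlated at 0.9159 to 0.9945, so these ranges overlapped. The targeted gene, Rasgef1b, lay between 9.03 and 9.19 in wild type and between 7.88 and 8.72 in knockout with saline, and between 9.69 and 9.84 and between 8.60 and 9.45 with R848. Knockout arrays were lower in both treatments, with signal remaining. Of 10 macrophage markers, 9 had a row and all 9 were above the dim limit, defined below, on every array. Their mean lay between 10.30 and 10.54. Of the markers of other cells with a row, those above that limit on all 12 arrays were 5 of 8 for dendritic cells, 3 of 10 for neutrophils, 1 of 6 for T cells, 2 of 5 for B cells, 3 of 5 for platelets and megakaryocytes, 3 of 6 for fibroblasts, 0 of 1 for erythroid cells and 0 of 5 for mast cells. Among them Cd209a (8.59 to 9.44) and Itgax (6.70 to 8.66) of dendritic cells and Pf4 of platelets (9.56 to 9.86) were well above it. Those of T and B cells above it were Cd4 (4.72 to 5.36), and Cd79b (4.96 to 5.46) and Cd22 (4.78 to 5.21). Cd3e of T cells and Cd79a of B cells were under it on all 12 arrays. The part of such cells in the results was not tested. A gene was tested if its value was above the 40th percentile of rows with 1 symbol (4.31 to 4.35, the dim limit) on at least 3 arrays. This kept 6 of the 7 members. In such bulk samples, fewer cells that express a gene and less RNA per cell cannot be told apart.

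**Figure D1:**
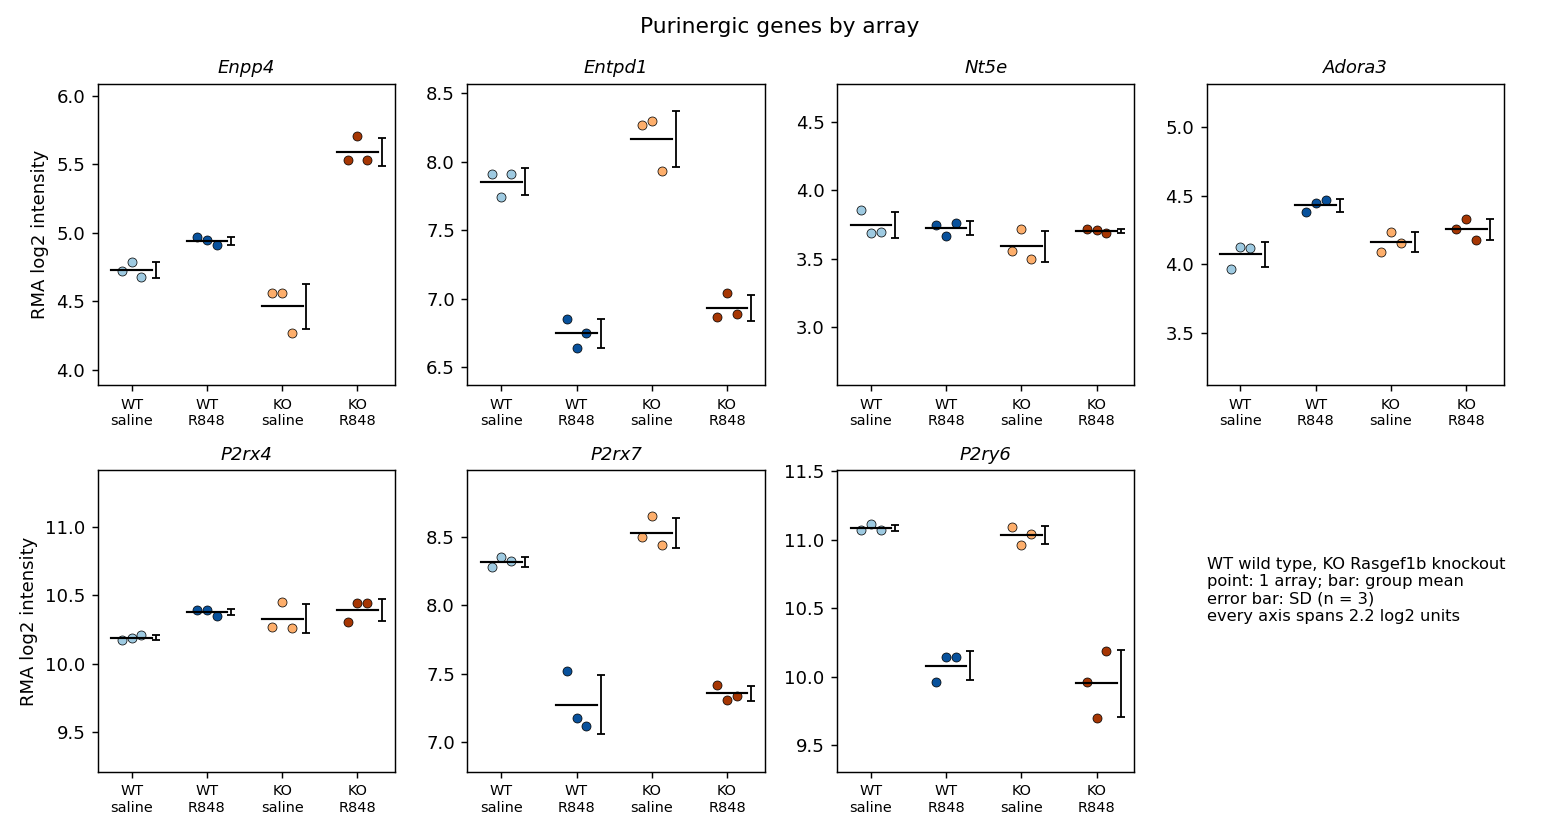
RMA log2 intensity of the 7 members on each of the 12 arrays (points), with group means (bars) and SD (error bars, n = 3), every axis spanning the same range. Entpd1, P2rx7 and P2ry6 are lower with R848 in both genotypes, while Enpp4 is highest in knockout cells with R848, at 5.53 to 5.71.

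Among the ectonucleotidases, Enpp4 was raised by R848 mainly in knockout cells and Entpd1 fell in both genotypes. Enpp4 encodes a membrane phosphodiesterase that splits dinucleotides such as diadenosine triphosphate. In wild-type cells it read 4.72, 4.79 and 4.68 with saline and 4.97, 4.95 and 4.91 with R848. In knockout cells it read 4.56, 4.56 and 4.27 with saline and 5.53, 5.71 and 5.53 with R848. All 4 groups were separate: knockout with R848 was highest, then wild type with R848, wild type with saline, and knockout with saline, and no 2 neighbours in this order overlapped.

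The R848 difference of Enpp4 was 0.21 (SE 0.09) in wild type and 1.13 (SE 0.09) in knockout. The second exceeded the first by 0.91, the difference for which the gene was listed. In terms of genotype, knockout cells were lower by 0.27 with saline and higher by 0.65 with R848, so the sign of the genotype difference turned with treatment. Same-numbered knockout arrays differed by 0.97, 1.15 and 1.26 between R848 and saline. With each of the 12 arrays left out in turn, the difference between the responses stayed between 0.82 and 0.96, a description and no test. The lowest value came without knockout saline replicate 3, the array at 4.27, which was also the only Enpp4 value under the dim limit.

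The averages over the other factor are independent, in this balanced layout, of the contrast that listed Enpp4, though they share its estimate of the spread. Averaged over genotypes, R848 raised Enpp4 by 0.67 ± 0.06 (SE, limma adjusted p = 2.69e-07), with R848 arrays above saline arrays in both genotypes. Averaged over treatments, knockout and wild type differed by 0.19 ± 0.06 (limma adjusted p = 0.141), which did not pass the threshold of 0.05. That difference passed in 1 of 20 alternative settings, without knockout saline replicate 3 (0.24, limma adjusted p = 0.0455). Over these settings its limma adjusted p reached 0.282.

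The start region of Enpp4 is shown because its expression is what singled out the gene. RefSeq promoters of GRCm38.p6 were found for 8 of the 10 members, 10 start sites in all. Each sequence is the 250 bases before an annotated start, 5′ to 3′ on the gene's strand, with matches to 5 motifs in capitals. The motifs, searched on both strands, were AP-1 (TGANTCA), a kappaB core (GGANTTTCC), an interferon response core (GAAANNGAA), PU.1 (GAGGAAGT) and a cyclic AMP response element (TGACGTCA). They were found in 6.75%, 1.07%, 7.13%, 2.44% and 1.55% of 32851 RefSeq promoter windows of this length, in that order. No 2 of the matches printed overlapped. Enpp4 lies on the minus strand, at chr17:44105810-44106059.
Enpp4: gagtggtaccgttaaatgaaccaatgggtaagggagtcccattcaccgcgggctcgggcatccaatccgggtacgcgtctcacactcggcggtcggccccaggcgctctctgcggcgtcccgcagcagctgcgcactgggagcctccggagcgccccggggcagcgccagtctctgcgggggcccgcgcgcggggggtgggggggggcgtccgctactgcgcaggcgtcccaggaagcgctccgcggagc
This window held none of the 5 motifs. It was rich in G and C (72.8%, against a median of 52.4% over these windows). It held 31 CG pairs, against a median of 6, and 94.8% of promoters held fewer.

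Entpd1 encodes CD39, the ectoenzyme that converts ATP and ADP to AMP and is abundant on macrophages. With saline it read 7.91, 7.74 and 7.91 in wild type and 8.27, 8.30 and 7.93 in knockout. With R848 it read 6.85, 6.64 and 6.75 in wild type and 6.87, 7.04 and 6.89 in knockout. Every R848 array lay below every saline array of either genotype. Entpd1 fell by 1.11 on the log2 scale in wild type (SE 0.10, limma adjusted p = 5.18e-07) and by 1.23 in knockout (SE 0.10, limma adjusted p = 1.45e-07), which are 2.15-fold and 2.35-fold decreases.

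Knockout arrays of Entpd1 also lay above wild-type arrays in both treatments, by 0.31 ± 0.10 (SE) with saline and 0.19 ± 0.10 with R848. Neither difference passed (limma adjusted p = 0.199 and 0.646), nor did their mean of 0.25 ± 0.07 (limma adjusted p = 0.0962). Knockout saline replicate 3, at 7.93, was close to the wild-type range. The mean difference passed in 2 of 20 alternative settings, with limma adjusted p between 0.0279 and 0.228. Without that array it was 0.31 (limma adjusted p = 0.0279), and with array weights it was 0.29 (limma adjusted p = 0.0424). The R848 responses of the genotypes differed by -0.13, with a 95% interval from -0.44 to 0.18.

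The first of the 2 annotated starts of Entpd1 is shown as that of a gene lowered by R848. It lies on the plus strand, at chr19:40612116-40612365.
Entpd1: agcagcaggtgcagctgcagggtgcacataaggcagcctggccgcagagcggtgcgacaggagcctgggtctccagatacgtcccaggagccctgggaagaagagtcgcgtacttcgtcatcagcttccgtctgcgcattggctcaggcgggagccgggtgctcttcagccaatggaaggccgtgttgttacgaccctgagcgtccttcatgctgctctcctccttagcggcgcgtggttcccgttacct
This window held none of the 5 motifs and 18 CG pairs. The second start, farther along the gene, held none of the motifs either and had 8 CG pairs.

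Nt5e encodes CD73, which makes adenosine from AMP and is the next step after CD39. It lay between 3.50 and 3.86, under the dim limit on all 12 arrays, and was not tested. Its group means were 3.75 and 3.73 in wild type with saline and R848, and 3.59 and 3.71 in knockout, and neighbouring groups overlapped. These values set no order between the groups.

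Of the nucleotide receptors, P2rx7 and P2ry6 fell with R848 in both genotypes, and P2rx4 moved little. P2rx7 encodes the ATP-gated channel that opens at high ATP. With saline it read 8.28, 8.35 and 8.32 in wild type and 8.50, 8.65 and 8.44 in knockout. With R848 it read 7.52, 7.18 and 7.12 in wild type and 7.42, 7.31 and 7.34 in knockout. Saline and R848 arrays were far apart, whereas the genotypes overlapped with R848. P2rx7 fell by 1.04 on the log2 scale in wild type (SE 0.10, limma adjusted p = 6.20e-07) and by 1.17 in knockout (SE 0.10, limma adjusted p = 1.58e-07).

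With saline, the 3 knockout arrays of P2rx7 were all above the wild-type arrays, by 0.21 ± 0.10 (SE, limma adjusted p = 0.390, not past the threshold). With R848 the difference was 0.08 ± 0.10 (limma adjusted p = 0.866). The R848 responses differed by -0.13, with a 95% interval from -0.43 to 0.17.

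The first of the 2 annotated starts of P2rx7, a gene that fell alongside Entpd1, is on the plus strand, at chr5:122643677-122643926.
P2rx7: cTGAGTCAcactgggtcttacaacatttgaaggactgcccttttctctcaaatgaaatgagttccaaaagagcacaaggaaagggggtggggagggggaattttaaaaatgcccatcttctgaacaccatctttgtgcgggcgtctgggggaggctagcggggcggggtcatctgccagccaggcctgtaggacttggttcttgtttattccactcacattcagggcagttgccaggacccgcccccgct
The capitals mark a match to the AP-1 motif that begins 249 bases before the start. The second start of P2rx7 held none of the 5 motifs. CG pairs numbered 6 and 4 at the first and second start.

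P2rx4 encodes another ATP-gated channel, found largely on lysosomes in macrophages. It is the next protein-coding gene after P2rx7 on chromosome 5 in the RefSeq table of GRCm38.p6. It read 10.17, 10.19 and 10.21 in wild type with saline, and 10.39, 10.39 and 10.35 with R848. In knockout it read 10.27, 10.45 and 10.26 with saline, and 10.30, 10.44 and 10.44 with R848. Wild-type saline arrays were lowest, and the other 3 groups overlapped. The R848 difference was 0.19 ± 0.07 (SE) in wild type and 0.07 ± 0.07 in knockout, neither past the threshold (limma adjusted p = 0.0600 and 0.516). The wild-type value passed in 7 of 21 alternative settings, with limma adjusted p between 0.00405 and 0.137. Median centring of the arrays moved it most, to 0.32.

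P2ry6 encodes a receptor for UDP that promotes phagocytosis in microglia, the macrophages of the brain. With saline it read 11.07, 11.11 and 11.07 in wild type and 11.09, 10.96 and 11.04 in knockout. With R848 it read 9.96, 10.14 and 10.14 in wild type and 9.96, 9.70 and 10.19 in knockout. The genotypes overlapped in both treatments, and every R848 array lay below every saline array. P2ry6 fell by 1.00 on the log2 scale in wild type (SE 0.10, limma adjusted p = 1.78e-06) and by 1.08 in knockout (SE 0.10, limma adjusted p = 7.39e-07). The genotype differences were -0.05 ± 0.10 (SE) with saline and -0.13 ± 0.10 with R848, with 95% intervals from -0.28 to 0.17 and from -0.35 to 0.09.

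Adora3, for the inhibitory A3 adenosine receptor, was the adenosine receptor gene with a row of 1 symbol. It read 3.97, 4.13 and 4.12 in wild type with saline, and 4.38, 4.45 and 4.47 with R848. In knockout it read 4.09, 4.24 and 4.16 with saline, and 4.26, 4.33 and 4.18 with R848. Wild-type cells with R848 were highest and separate from the other 3 groups, which overlapped from one to the next. They were also the only arrays above the dim limit. Adora3 thus entered the test through the group where it was high and had to differ there, and its wild-type result is not counted as support for a change.

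The R848 difference of Adora3 was 0.36 ± 0.08 (SE, limma adjusted p = 0.00134) in wild type and 0.09 ± 0.08 (limma adjusted p = 0.360) in knockout. Their difference was -0.27 (95% interval from -0.50 to -0.04), which did not pass over all genes (limma adjusted p = 0.965). After median centring the knockout value was 0.24 and passed (limma adjusted p = 0.0207), and it passed in no other alternative setting.

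The window before the start of Adora3 is shown because it held matches to 2 of the motifs. It lies on the plus strand, at chr3:105904171-105904420.
Adora3: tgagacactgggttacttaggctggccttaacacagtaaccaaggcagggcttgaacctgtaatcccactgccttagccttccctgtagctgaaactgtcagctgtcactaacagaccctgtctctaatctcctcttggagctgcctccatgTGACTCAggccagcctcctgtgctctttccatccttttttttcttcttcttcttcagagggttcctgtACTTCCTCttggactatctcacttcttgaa
The capitals mark an AP-1 match that begins 98 bases before the start and a PU.1 match on the opposite strand that begins 30 bases before it. The window held 0 CG pairs.

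**Figure D2:**
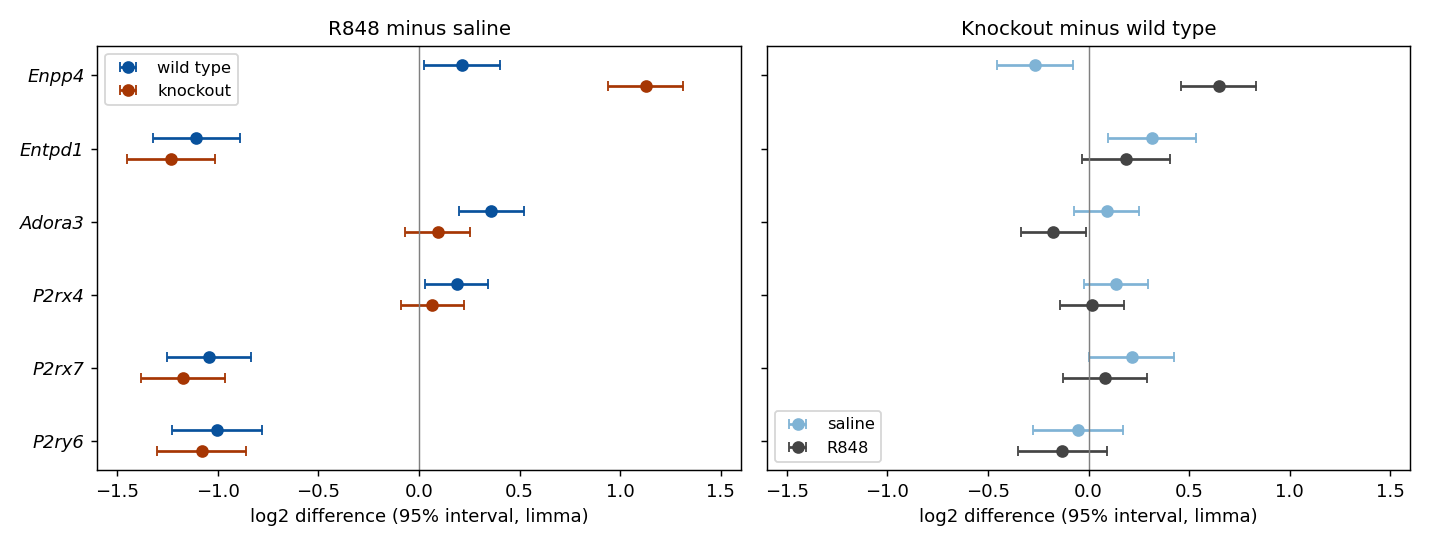
Log2 differences with 95% limma intervals for the 6 tested members, R848 minus saline by genotype (left) and knockout minus wild type by treatment (right). Entpd1, P2rx7 and P2ry6 fall by 1.00 to 1.23 in both genotypes. Enpp4, listed for its interaction, is shown as a description, and its intervals here are no test.

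Enpp4, listed for its interaction, and Adora3, with the limit from the filter given above, are left out of the counts that follow, which cover Entpd1, P2rx4, P2rx7 and P2ry6. For R848 in wild type 3 of 4 passed the threshold, all lower, where 38.3% of all tested genes passed and 23.6% were lower. In knockout 3 of 4 passed, all lower, against 41.6% of all tested genes, with 26% lower. Entpd1, P2rx7 and P2ry6 were the 3 that fell in both, and they also passed averaged over genotypes, where 50% of all tested genes did. The R848 and saline arrays did not overlap for 4 of 4 in wild type and 3 of 4 in knockout, where 48.1% and 48.8% of all tested genes did not overlap.

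For genotype, 0 of 4 passed by limma in saline or with R848, where 0.334% and 0.135% of all tested genes passed. At an unadjusted limma p under 0.05 there were 2 in saline, Entpd1 and P2rx7, and 0 with R848, where 12.6% and 8.74% of all tested genes were under it. The genotypes did not overlap for 3 of 4 with saline (Entpd1, P2rx4 and P2rx7, higher in knockout) and 1 of 4 with R848 (Entpd1, higher in knockout), where 16.1% and 13.8% of all tested genes did not overlap. Averaged over treatments 0 of 4 passed by limma, against 1.78% of all tested genes, and 2 had an unadjusted p under 0.05 (Entpd1 and P2rx7), against 16.1%. For the interaction, the gap between the R848 responses of the genotypes, 0 of 4 passed by limma, against 0.0142% of all tested genes, and 0 had an unadjusted p under 0.05, against 4.93%.

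The rest of the purinergic pathway was read from lists of 59 further genes, of which 51 had a row and 39 were tested. R848, averaged over genotypes, raised 12 and lowered 12 of them, with a median of 0.03, where 50% of all tested genes passed and their median was -0.02. In wild type 9 rose and 10 fell, and in knockout 10 rose and 12 fell, where 38.3% and 41.6% of all tested genes passed. Among the genes raised in each of these counts were Gja1 and Ak4. Neither would have passed the filter without its R848 arrays, so their rise is not counted as support for a change. By limma 0 of 39 passed for genotype in saline, with R848 or averaged over treatments, or for the interaction. Of all tested genes, 0.334%, 0.135%, 1.78% and 0.0142% did, in that order. At an unadjusted limma p under 0.05, the 39 gave 5 in saline, 4 with R848, 5 averaged over treatments and 3 for the interaction. Of all tested genes, 12.6%, 8.74%, 16.1% and 4.93% were under it.

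Of 6 other tested genes listed by their P2ry symbols, whatever their ligands, 2 rose and 3 fell with R848 in both genotypes. Of all tested genes, 38.3% passed in wild type and 41.6% in knockout. P2ry2, for a receptor of ATP and UTP, went from 7.14 ± 0.16 (SD, n = 3) to 9.08 ± 0.10 in wild-type cells. In knockout cells it went from 7.08 ± 0.15 to 8.98 ± 0.17. Averaged over genotypes it rose by 1.92 ± 0.08 (SE, limma adjusted p = 1.81e-11). Receptors for ADP went the other way. P2ry1 fell by 1.15 in wild type and fell by 1.54 in knockout (limma adjusted p = 1.54e-05 and 7.20e-07), ending close to the dim limit at 4.45 and 4.39. P2ry12 fell by 0.55 and by 0.62, and P2ry13 by 0.58 and by 0.36, all past the threshold by limma. Of the other P2X genes, P2rx1 and P2rx5 were tested and neither passed, with averages of 0.05 and 0.10.

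Of 9 further genes tested for enzymes that split nucleotides, 2 rose and 2 fell, averaged over genotypes, where 50% of all tested genes passed. Entpd6 and Entpd5, nucleoside diphosphatases of the secretory pathway, fell by 0.48 and by 0.38 (limma adjusted p = 3.03e-06 and 0.000368). Bst1, an ectoenzyme that cleaves NAD, rose by 0.33 (limma adjusted p = 0.00488), and the phosphatase gene Acpp by 0.16 (limma adjusted p = 0.0469). Acpp passed in neither genotype alone (limma adjusted p = 0.05005 in wild type and 0.491 in knockout). Its group means, 4.23 to 4.47, lay around the dim limit. Enpp5, the relative of Enpp4 with a tested row, had R848 differences of -0.14 in wild type and -0.11 in knockout, neither past the threshold.

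Among 11 tested genes for ATP release and nucleoside transport, 4 rose and 3 fell, averaged over genotypes. Of all tested genes, 50% passed there. Slc28a2, a transporter that concentrates purine nucleosides in the cell, rose by 2.23 ± 0.10 (SE) in wild type and by 2.33 ± 0.10 in knockout (limma adjusted p = 1.33e-10 and 7.44e-11). Slc29a3, for the nucleoside transporter of lysosomes, fell by 1.35 and by 1.61 (limma adjusted p = 3.39e-07 and 4.35e-08). One of the 4 was Gja1, for a connexin, with differences of 1.08 and 0.78. Its saline arrays (3.56 to 3.87) were all under the dim limit and its R848 arrays (4.44 to 4.85) above it, so it passed the filter only through R848 arrays, and its result is not counted as support for a change. Panx1, for a channel that lets ATP out, fell by 0.45 and by 0.53.

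Inside the cell, 4 of 11 tested genes of adenosine and inosine handling rose and 4 fell, averaged over genotypes. Of all tested genes, 50% passed there. Nt5c3, a pyrimidine nucleotidase, rose by 1.23 ± 0.10 (SE) in wild type and by 1.57 ± 0.10 in knockout. Pnp, for purine nucleoside phosphorylase, rose by 0.78 and by 1.29, and the mitochondrial adenylate kinase gene Ak4 by 0.73 and by 1.32. With saline Ak4 lay between 3.99 and 4.46 in wild type and between 3.62 and 3.80 in knockout, with 1 array above the dim limit. Its differences and interaction therefore rest on saline values near or under background. Ak4 passed the filter only with its R848 arrays, so its rise is not counted as support for a change. The interactions of Pnp (0.51) and Ak4 (0.59) did not pass (limma adjusted p = 0.986 and 0.965). Nt5c2, a purine nucleotidase of the cytosol, fell by 1.04 and by 1.12. Ada, for adenosine deaminase, did not pass the filter.

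**Figure D3:**
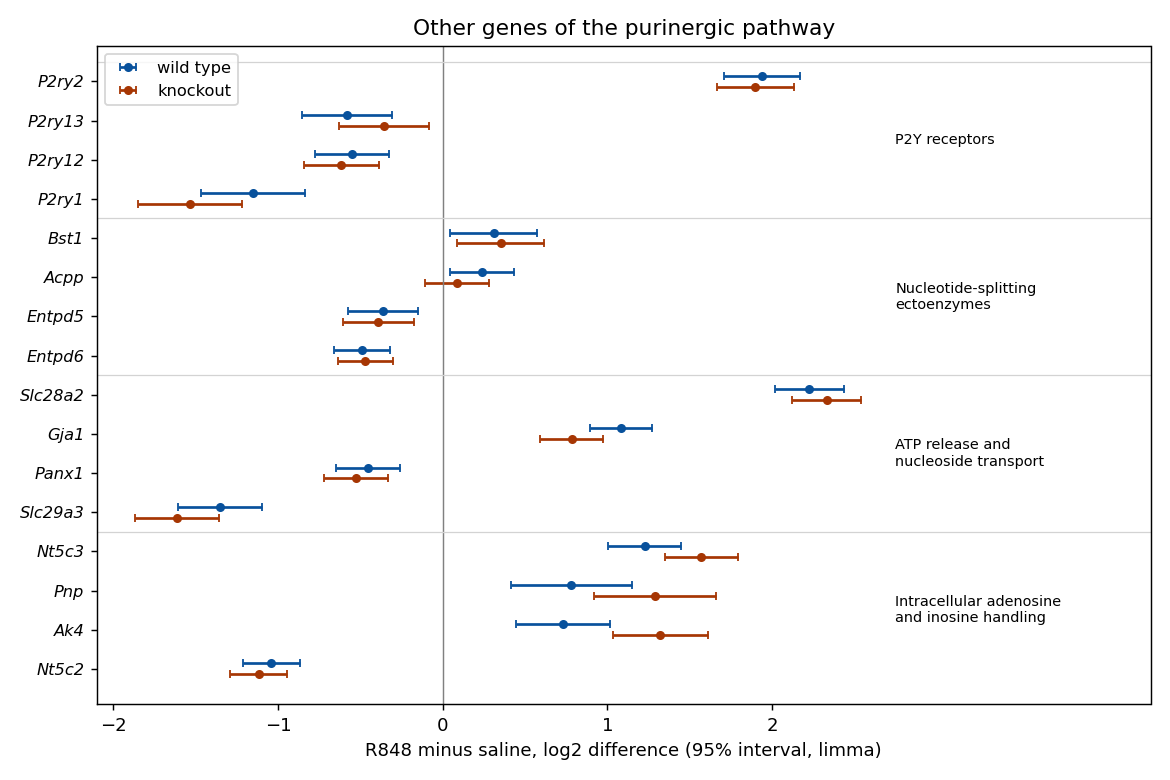
R848 minus saline in wild type and knockout, as log2 differences with 95% limma intervals, for up to 4 genes per pathway list with the largest change averaged over genotypes. P2ry2 and Slc28a2 rise by 1.90 to 2.33, Slc29a3 and P2ry1 fall by 1.15 to 1.61, and in each of these genes the intervals of the genotypes overlap.

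The genes whose values over the 12 arrays were most like those of Enpp4 were Akap2 (Pearson r = 0.945), Gm13889 (0.938), Lrch1 (0.935), A530016L24Rik (0.920) and Gtpbp2 (0.911). These correlations describe 12 arrays that share 4 groups. Their differences between the R848 responses were 0.33, 0.50, 0.21, 0.32 and 0.24. That of Enpp4, 0.91, is the value for which it was listed, so no comparison is drawn from it. The like genes were picked for following Enpp4 on these same arrays. The shared sign of their differences is tied to that choice and is no support for a common response. Of 14078 other tested genes, 9 correlated above 0.9.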

How the data were processed

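The deposited log2 values come from 12 Affymetrix Mouse Gene 2.1 ST arrays. The authors made them with Affymetrix Expression Console and RMA (background correction, quantile normalization, probe summary), per the submitters' processing notes. No source used here gives versions, settings, strips or scan batches. Quantile normalization hides a change in total RNA. A dim row is compressed by background, and the number of arrays limits the precision.

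Of 34472 rows, 23521 had 1 platform symbol, and 23328 of these matched RefSeq by Entrez number with 0 symbols changed. Rows with several symbols (1814) or none here (9137) were left unnamed. The row with the highest mean stood for a gene. The filter kept 14079 of 22180 genes. limma 3.58.1 in R 4.3.3 (lmFit, eBayes) fitted 1 mean per group over all 12 arrays. P-values were adjusted by Benjamini-Hochberg within each contrast over all tested genes. The threshold was 0.05, and each adjusted p printed is limma's. The fit was tested on simulated data. Members and lists were chosen with earlier results of these data known.

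All members were named. So were, per pathway list, up to 4 genes past the threshold for R848 averaged over genotypes with the largest change, and the 5 genes most correlated with Enpp4. P2rx1, P2rx5, Enpp5 and Ada were named after their values were seen. Replicate numbers were checked for pairing by correlating residuals, and at least 0.1 was asked of each pair. The knockout arrays met it between treatments (0.272, 0.172 and 0.275), a pairing taken from the data. The other comparisons did not. Alternatives covered the filter, the spread model, scaling, arrays fitted, array weights, replicate numbers and leaving out each array.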

Additional observations from a re-analysis of the deposited data

Results flagged for a closer look

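Enpp4 is listed here because its R848 responses differ between the genotypes by 0.91 on the log2 scale (knockout minus wild type). This contrast is the one for which the gene was chosen, so the difference carries no test here. The value came from a dim row whose wild-type saline arrays, at 4.68 to 4.79, lay close above the dim limit. Its knockout saline arrays were lower still, at 4.27 to 4.56, and replicate 3 of these was under that limit. Groups of 3 arrays are too small to single out an array within a group.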

How the results depend on the processing

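The falls of Entpd1, P2rx7 and P2ry6 with R848 kept their direction and stayed past the threshold in both genotypes under all 21 alternatives run for each, 12 of which left out 1 array. With median centring 5 members, not 3, passed for R848 in knockout, Adora3 and P2rx4 being added. That scaling moved the median R848 difference of all genes from -0.02 to 0.11 for wild-type cells and, for knockout cells, from -0.03 to 0.12. It also moved the share of higher genes among those called from 38.3% to 62.2% and from 37.4% to 63.6%. Cyclic loess gave 48.5% and 49.4%. For genotype averaged over treatments, 1 member passed with array weights and between 0 and 2 when 1 array was left out. Values past no threshold that changed sign were P2rx4 for genotype with R848 (-0.0067 without knockout R848 replicate 2 or 3, the range being -0.0067 to 0.063) and the P2ry6 interaction (0.048 without knockout R848 replicate 2, the range being -0.20 to 0.048). With the replicate block the counts were 4 in wild type and 3 in knockout. The 4 take in Adora3, whose wild-type result is not counted as support for a change. No call of a member changed with the block, in the paired knockout comparison or the others. The stricter filter removed Adora3 and added P2rx4 in wild type. No member had another row, so that alternative was not run, and fits of the compared arrays alone do not exist for averages and the interaction. Signal limits Nt5e, Adora3 and Enpp4, which lie near or under the dim limit. The causes of these shifts were not tested.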
